A study of Mus musculus with 10 samples.

Results

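The genes described here encode the enzymes and transporters that take up glucose, break it down to pyruvate and exchange lactate, the enzymes that gate the entry of pyruvate into mitochondria, and 3 regulators of the response to low oxygen. They are the 36 named genes of these pathways in a count table of 54532 genes, chosen by gene name. The names matched 37 rows, because Aldoa stands on 2 of them, and the second Aldoa row had 0.0609 to 0.674 CPM (the usual count unit scaled to library size, here with TMM-scaled sizes) and was not tested. All 36 genes passed the filter on low counts, which left 17139 genes in the tests.

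The study sequenced RNA from lung tissue of wild-type (WT) mice in 3 treatment groups. The LPS+TSLP group (4 libraries) received recombinant thymic stromal lymphopoietin (TSLP), an epithelial cytokine, before lipopolysaccharide (LPS). The LPS group (3 libraries) received LPS, a component of the outer membrane of Gram-negative bacteria that activates innate immunity through TLR4, and the Vehicle group (3 libraries) received the vehicle. Sex, age, strain, doses, routes and times are not given in the sources used here, nor is whether each library is a separate animal, so p-values measure the spread between these samples, which may be technical.

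Glycolysis splits glucose into pyruvate, with control concentrated at hexokinase, phosphofructokinase and pyruvate kinase. Pyruvate is then either reduced to lactate, which leaves the cell through monocarboxylate transporters, or oxidised in mitochondria by the pyruvate dehydrogenase complex, which the pyruvate dehydrogenase kinases (PDKs) switch off by phosphorylation. Myeloid cells activated through TLR4 are known to lean on glycolysis and on the hypoxia-inducible factor HIF-1alpha, whereas its relative HIF-2alpha is abundant in lung endothelium.

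Library totals ranged from 16175172 to 18374461 counts. Mitochondrially encoded genes took 13.1%, 6.5%, 5.35% and 2% of counts in LPS+TSLP replicates 1 to 4. The share was 1.2%, 2.58% and 2.29% in LPS replicates 1 to 3 and 1.11% to 1.27% in Vehicle. LPS+TSLP replicates 1 to 3 thus lay above every LPS and Vehicle library. In comparisons with LPS+TSLP, what lies behind this cannot be told apart from treatment. LPS replicate 1 alone carried Xist (206 CPM) and no reads of the Y-linked Ddx3y, which lay at 59.7 to 94.8 CPM in the remaining LPS+TSLP and LPS libraries and at 6.03 to 11.4 CPM in Vehicle. Results that rest on LPS+TSLP replicate 1 or LPS replicate 1 are given below without them. Neutrophil markers (13 genes) summed to 584 to 1226 CPM in LPS+TSLP, 1683 to 2501 CPM in LPS and 482 to 1387 CPM in Vehicle, so that all LPS libraries lay above the others. In bulk tissue, fewer cells of a type and less RNA per cell cannot be told apart.

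LPS against Vehicle compared the LPS libraries with the Vehicle libraries. Ddx3y was lower in all Vehicle libraries than in any other library with reads of it. Whatever lies behind that cannot be told apart from treatment in comparisons with Vehicle. Hk3 and Hif1a rose, Pdk2, Pfkm and Epas1 fell, and 31 of the 36 genes did not pass the test (edgeR quasi-likelihood, Benjamini-Hochberg adjusted p under 0.05 over all genes tested). The share that passed was 13.9%, below the 24.9% of all tested genes that were called in this comparison. At an unadjusted p under 0.05 there were 13 genes, and 39.6% of all tested genes reached that level. In 16 genes (44.4%) the LPS and Vehicle libraries did not overlap, 7 higher and 9 lower in LPS, against 49.8% of all tested genes. The median log2 fold change was 0.1 over the 36 genes and 0.01 over all tested genes, with 20 values above 0 and 16 below. The median over the 36 was 0 without Vehicle replicate 1, 0.02 without LPS replicate 1, 0.19 without LPS replicate 2, 0.2 with the trend of counts with GC content removed, and 0.04 with LPS+TSLP replicate 1 and LPS replicate 1 both left out.

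**Figure D1:**
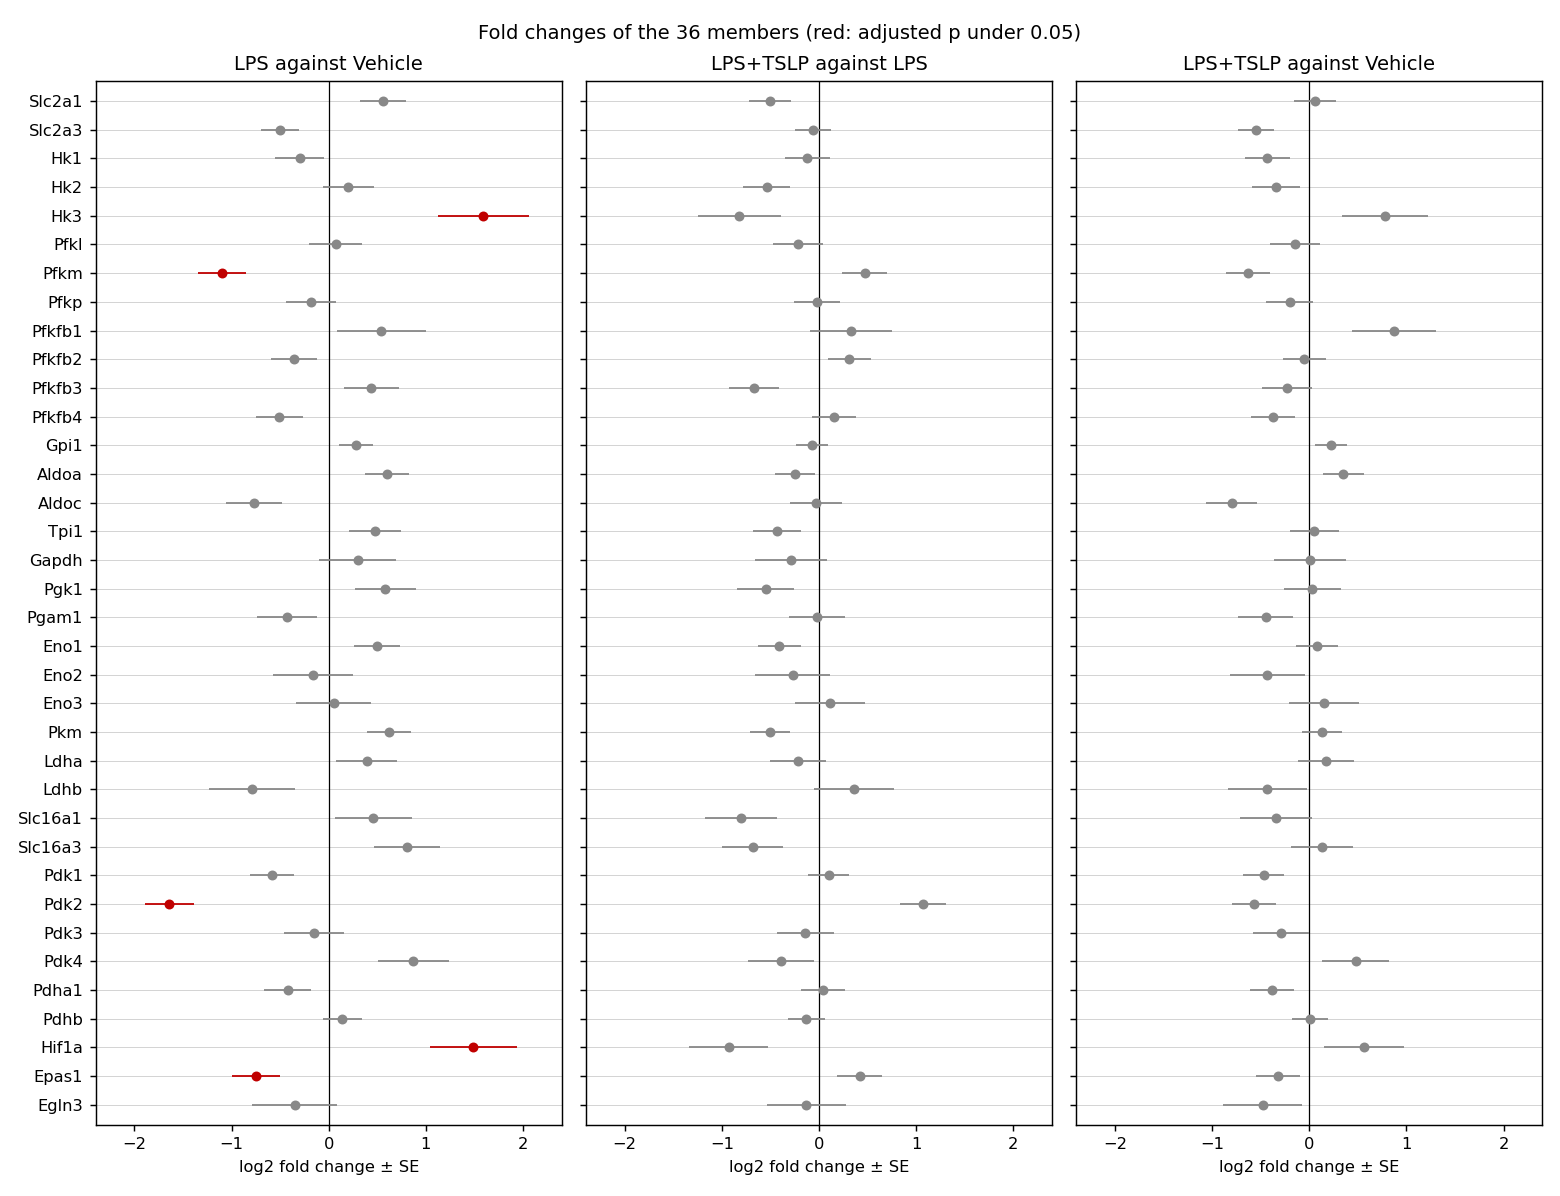
The horizontal axes give the log2 fold change with its standard error (bars) of the 36 genes in LPS against Vehicle (left), LPS+TSLP against LPS (middle) and LPS+TSLP against Vehicle (right), in pathway order from glucose transporters to hypoxia regulators. The 5 genes with an adjusted p under 0.05 (red) all stand in the left panel, from −1.64 for Pdk2 to 1.59 for Hk3.

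The 250 bases before the RefSeq start nearest to the principal transcript are printed for 4 of the 5 genes that passed, to show the letters at their promoters in the direction of transcription (RefSeq, GRCm38.p6). Hif1a lies at chr12:73907617-73907866, plus strand, Hk3 at chr13:55021386-55021635, minus strand, Pdk2 at chr11:95041372-95041621, minus strand and Pfkm at chr15:98108221-98108470, plus strand. Capitals mark ACGTG or GCGTG, the core that HIF proteins bind, on either strand (CACGT and CACGC on the printed strand).
Hif1a: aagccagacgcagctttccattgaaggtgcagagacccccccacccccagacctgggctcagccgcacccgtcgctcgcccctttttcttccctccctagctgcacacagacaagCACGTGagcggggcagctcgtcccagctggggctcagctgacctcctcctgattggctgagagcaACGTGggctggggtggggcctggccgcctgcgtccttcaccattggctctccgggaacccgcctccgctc
Hk3: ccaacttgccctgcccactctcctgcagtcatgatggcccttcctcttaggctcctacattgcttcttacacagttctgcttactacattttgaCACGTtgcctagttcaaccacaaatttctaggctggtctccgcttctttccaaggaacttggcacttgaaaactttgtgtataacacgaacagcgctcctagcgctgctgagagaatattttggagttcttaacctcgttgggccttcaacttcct
Pdk2: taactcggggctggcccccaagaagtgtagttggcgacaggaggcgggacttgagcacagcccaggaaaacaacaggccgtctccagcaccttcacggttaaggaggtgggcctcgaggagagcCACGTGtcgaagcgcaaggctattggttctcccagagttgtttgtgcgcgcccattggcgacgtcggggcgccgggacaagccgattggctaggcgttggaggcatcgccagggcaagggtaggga
Pfkm: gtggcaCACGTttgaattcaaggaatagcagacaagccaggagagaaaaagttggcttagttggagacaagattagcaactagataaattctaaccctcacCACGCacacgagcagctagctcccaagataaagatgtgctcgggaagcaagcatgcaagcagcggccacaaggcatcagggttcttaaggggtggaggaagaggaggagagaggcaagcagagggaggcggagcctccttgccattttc
Pdk2 and Hif1a each hold the palindrome CACGTG, which contains ACGTG on both strands and is also the E-box letters of other factors. Of the 53 RefSeq promoters listed for 34 of the 36 genes, 41 (77.4%) held ACGTG or GCGTG, against 38.6% of all 32851 promoters of the same length. ACGTG was in 41.5% of the 53 and 16.6% of all promoters, and GCGTG was in 50.9% of the 53 and 28.2% of all. Both motifs contain CG, and the full set of promoters was not matched to the 53 for base composition. Some windows of the same gene overlap, so they are not independent. Whether the 36 genes hold more matches than promoters of like composition was not tested. These are matches of letters and not measured binding, and both genes that rose and genes that fell hold them. Epas1 and Slc2a3 were not in the promoter table.

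Glucose enters through the facilitative transporters Slc2a1 (GLUT1) and Slc2a3 (GLUT3), and neither passed in any comparison. Slc2a1 averaged 51.5 ± 5.11 CPM in LPS+TSLP (SD, n = 4), 73 ± 13.9 CPM in LPS and 49.5 ± 13.4 CPM in Vehicle (n = 3 each). Its log2 fold change in LPS against Vehicle was 0.56 (SE 0.233, adjusted p = 0.0993). With the trend of counts with GC content removed from each library it was 0.78 and passed (adjusted p = 0.0401). Slc2a1 passed in only 1 of the 19 other settings run at the same threshold. Slc2a3, a high-affinity form, had a log2 fold change of −0.5 in LPS against Vehicle (SE 0.199, adjusted p = 0.0896), and in this gene the 3 LPS libraries (12.9 to 19.3 CPM) all lay below the 3 Vehicle libraries (22.1 to 25.1 CPM). Slc2a1 made up 79.5% ± 1.85 of the CPM per kilobase of the pair in LPS+TSLP, 83.8% ± 4.44 in LPS and 71.2% ± 4.97 in Vehicle, with all LPS libraries (79.5% to 88.4%) above all Vehicle libraries (65.5% to 74.5%).

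Hexokinases trap glucose by phosphorylating it. Hk3 (ENSMUSG00000025877, GRCm38 chromosome 13, 55005985 to 55021385, minus strand), the hexokinase known from myeloid cells, had 64.1, 26.1, 62.7 and 23.7 CPM in LPS+TSLP replicates 1 to 4, 62, 62.3 and 109 CPM in LPS replicates 1 to 3 and 13.6, 25.9 and 37.7 CPM in Vehicle replicates 1 to 3. The lowest LPS library stood above the highest Vehicle library, and the LPS+TSLP libraries fell into a pair near the lower LPS libraries and a pair within the Vehicle range. Hk3 rose in LPS against Vehicle by 1.59 on the log2 scale (SE 0.47, adjusted p = 0.0312). The call was lost without Vehicle replicate 1 (1.29, adjusted p = 0.122), Vehicle replicate 2 (adjusted p = 0.0975), LPS replicate 1 (adjusted p = 0.0603) or LPS replicate 3 (adjusted p = 0.0891), and with no filter on low counts (adjusted p = 0.0843). It held with LPS+TSLP replicate 1 and LPS replicate 1 both left out (1.75, adjusted p = 0.037), as did those of Pfkm (−1.1, adjusted p = 0.0157) and Pdk2 (−1.56, adjusted p = 0.00865). The summed neutrophil markers were also highest in LPS. Of these 13 markers 3 rose and none fell in LPS against Vehicle, where 24.9% of all tested genes were called. By sign 10 lay above 0 and 3 below, with Ngp, Ltf and Camp lower on average in LPS. Monocyte and interstitial macrophage markers (9 genes, of which 2 rose and none fell) summed to 1117, 846, 1219 and 713 CPM in LPS+TSLP replicates 1 to 4, 1126 to 1306 CPM in LPS and 622 to 915 CPM in Vehicle. The neutrophil sums were 584, 1079, 1226 and 882 CPM in LPS+TSLP replicates 1 to 4. The part of either marker list in the result was not tested.

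Hk1, the broadly expressed form, and Hk2, the inducible form, did not pass. Hk1 averaged 93.6 ± 19.9 CPM in LPS+TSLP, 102 ± 32.2 CPM in LPS and 126 ± 12 CPM in Vehicle. Hk2 averaged 35.9 ± 7.37 CPM in LPS+TSLP, 52.2 ± 7.73 CPM in LPS and 45.5 ± 13.7 CPM in Vehicle. Per kilobase of principal transcript, Hk3 made up 30.1% ± 11.9 of the 3 hexokinases in LPS+TSLP, 39.9% ± 2.71 in LPS and 15.8% ± 5.23 in Vehicle. The LPS libraries (36.8% to 42%) did not overlap the Vehicle libraries (10.9% to 21.3%), while the LPS+TSLP libraries (15.8% to 39.9%) overlapped both.

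Phosphofructokinase commits sugar to glycolysis, and its muscle-type subunit Pfkm (ENSMUSG00000033065, GRCm38 chromosome 15, 98092589 to 98132451, plus strand) fell. Pfkm had 23.9, 14.9, 15.9 and 19.5 CPM in LPS+TSLP replicates 1 to 4, 13.8, 14 and 12.3 CPM in LPS replicates 1 to 3 and 33.4, 31.6 and 20.8 CPM in Vehicle replicates 1 to 3. The LPS libraries were the lowest 3 of the 10 and lay close together. The log2 fold change in LPS against Vehicle was −1.1 (SE 0.246, adjusted p = 0.011), and the call was lost without Vehicle replicate 1 (−0.96, adjusted p = 0.0573) or Vehicle replicate 2 (−1.02, adjusted p = 0.0514). Exons of another annotated transcript, Gm26513, cover 10.2% of the exon bases of Pfkm, and reads there could have been counted for neither or either gene. Muscle around mouse pulmonary veins also expresses cardiac muscle markers (8 genes). Their sums lay at 51 to 731 CPM in LPS+TSLP, 38.2 to 284 CPM in LPS and 100 to 706 CPM in Vehicle. Of the 8 markers 1 fell in LPS against Vehicle, where 24.9% of all tested genes were called. The part of these markers in the result was not tested.

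The liver-type subunit Pfkl and the platelet-type subunit Pfkp did not pass, with log2 fold changes in LPS against Vehicle of 0.07 (SE 0.276) and −0.18 (SE 0.258). The PFKFB enzymes set the level of the sugar bisphosphate that activates phosphofructokinase, and none of the 4 passed. Pfkfb3, the form with the strongest kinase activity, had 167, 82.1, 169 and 131 CPM in LPS+TSLP replicates 1 to 4, 177, 192 and 285 CPM in LPS replicates 1 to 3 and 159 to 164 CPM in Vehicle. The LPS libraries all exceeded the others, but the log2 fold change in LPS against Vehicle was 0.44 (SE 0.28, adjusted p = 0.265). Pfkfb4 and Pfkfb2 lay lower in all LPS than in all Vehicle libraries (log2 −0.51, SE 0.243, and −0.36, SE 0.236), and neither passed (adjusted p = 0.14 and 0.283). Pfkfb1, a liver and muscle form, stayed between 1.07 and 3.74 CPM. Of the 50-base stretches of the principal Pfkfb2 transcript, 25.1% also occur in other genes, which makes its level uncertain.

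**Figure D2:**
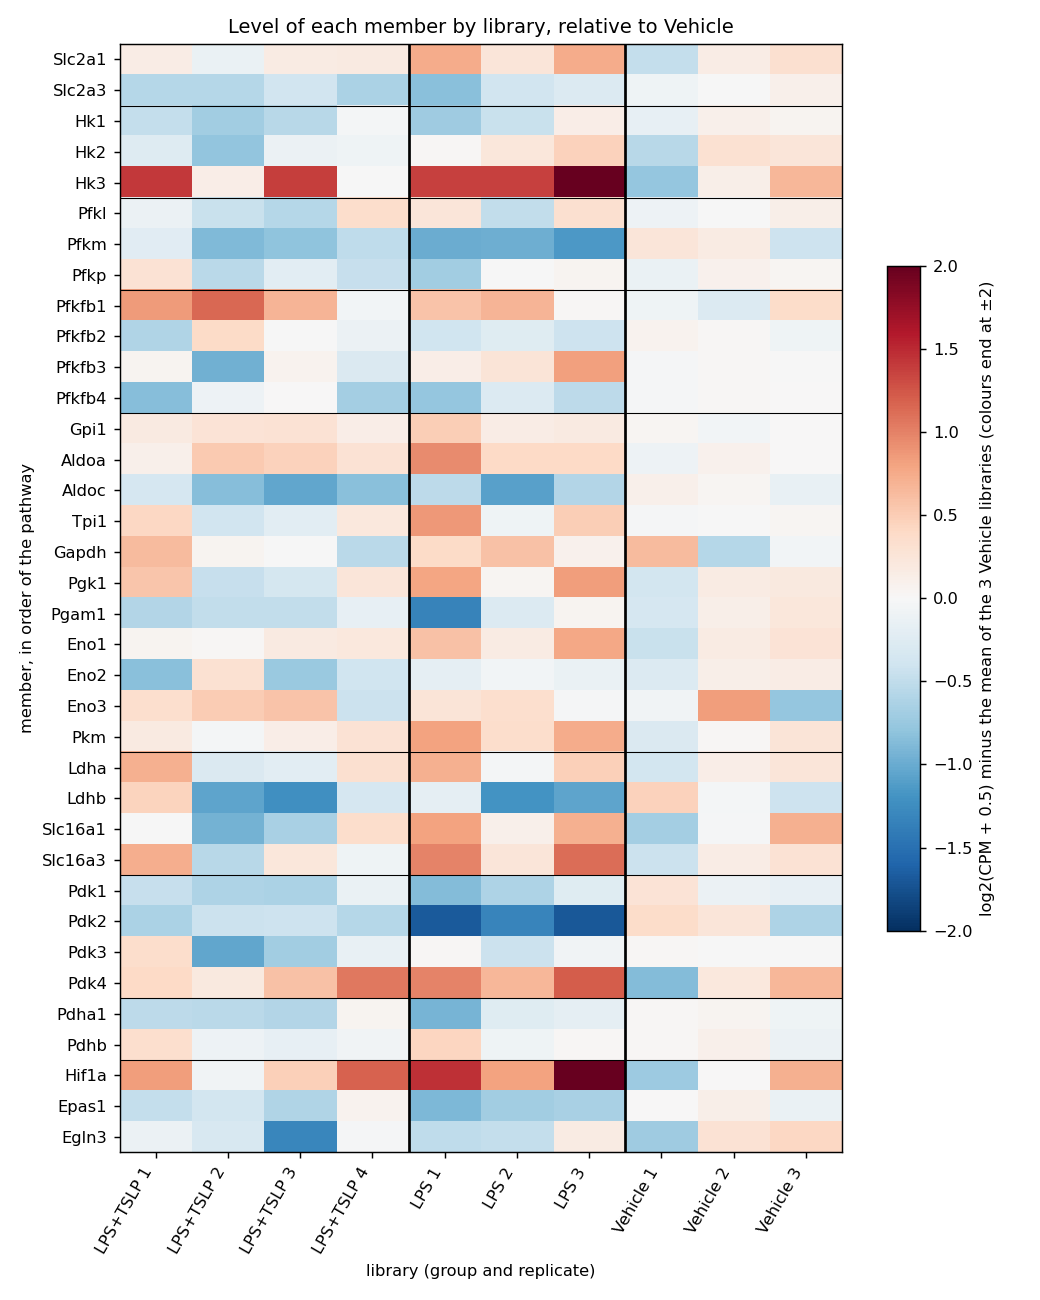
Each row is 1 of the 36 genes and each column a library, with LPS+TSLP left of LPS and LPS left of Vehicle; colour gives log2(CPM + 0.5) minus the mean of the 3 Vehicle libraries and ends at ±2, and thin lines part the pathway groups. Pdk2 and Pfkm are blue in all 3 LPS libraries and Hk3 and Hif1a red, while Hk3 in LPS+TSLP is strong in replicates 1 and 3 (64.1 and 62.7 CPM) and pale in replicates 2 and 4 (26.1 and 23.7 CPM).

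The enzymes from glucose phosphate isomerase to pyruvate kinase numbered 11, of which none rose or fell in any comparison. In LPS against Vehicle 8 had a log2 fold change above 0 and 3 below, with a median of 0.3, while 50.4% of all tested genes lay above 0. In Gpi1, Aldoa and Pkm alone of the 11 the LPS and Vehicle libraries did not overlap, with LPS higher. Of all tested genes 49.8% did not overlap in this comparison. Pkm (pyruvate kinase of most tissues) had 631, 545, 612 and 681 CPM in LPS+TSLP replicates 1 to 4, 974, 708 and 929 CPM in LPS replicates 1 to 3 and 457, 569 and 667 CPM in Vehicle replicates 1 to 3. Its log2 fold change in LPS against Vehicle was 0.62 (SE 0.222, adjusted p = 0.0594). Every LPS library of Pkm lay above every library of the other groups. Aldoa, the main aldolase, had 561, 756, 720 and 637 CPM in LPS+TSLP replicates 1 to 4, 1005, 688 and 694 CPM in LPS replicates 1 to 3 and 489, 557 and 528 CPM in Vehicle replicates 1 to 3, and its log2 value was 0.6 (SE 0.222, adjusted p = 0.068). With the GC trend removed, Pkm (0.85, adjusted p = 0.0284) and Aldoa (0.84, adjusted p = 0.0235) passed, and under DESeq2's Wald test they also passed (adjusted p = 0.0136 and 0.0191). Of the 19 other settings run at the same threshold, Pkm passed in 3 and Aldoa in 2.

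Aldoc, the brain-type aldolase, went the other way: 4.36 to 7.42 CPM in LPS+TSLP, 4.24 to 6.46 CPM in LPS and 8.52 to 10.3 CPM in Vehicle. All Vehicle libraries lay above all others, with log2 fold changes of −0.77 in LPS against Vehicle (SE 0.287, adjusted p = 0.0713) and −0.8 in LPS+TSLP against Vehicle (SE 0.266, adjusted p = 0.065). Pgam1 (phosphoglycerate mutase) and Eno2 (neuronal enolase) were the remaining genes of the 11 with values below 0 in LPS against Vehicle, −0.43 (SE 0.307) and −0.16 (SE 0.411). Levels of several of these enzymes are uncertain, since 50-base stretches of the principal transcript also occur in other genes, many of them annotated as processed pseudogenes: 82.5% for Gapdh, 72.2% for Eno1, 68% for Pgk1, 41.5% for Pgam1, 34.4% for Pkm, 19.3% for Gpi1 and 13.9% for Aldoa. Gapdh, shared with 218 other genes, was listed at 3.72 to 9.08 CPM in LPS+TSLP, 6.05 to 8.75 CPM in LPS and 3.63 to 9.1 CPM in Vehicle, and how the counting treated reads that match several genes is not given in the sources used here.

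Lactate dehydrogenase interconverts pyruvate and lactate, and none of the 4 lactate genes passed. Ldha, the form that favours lactate, averaged 446 ± 149 CPM in LPS+TSLP, 519 ± 130 CPM in LPS and 396 ± 83.9 CPM in Vehicle. Of the 50-base stretches of the principal Ldha transcript, 17.1% also occur in other genes. Ldhb, the heart-type form (27% of the 50-base stretches of its principal transcript shared with a processed pseudogene), averaged 69 ± 39 CPM in LPS+TSLP, 53.7 ± 22 CPM in LPS and 92.7 ± 28.9 CPM in Vehicle. Its log2 fold change in LPS against Vehicle was −0.79 (SE 0.438, adjusted p = 0.203), and with LPS+TSLP replicate 1 and LPS replicate 1 both left out it was −1.15 and passed (adjusted p = 0.0345). Ldhb passed in 2 of the 19 other settings run at the same threshold. The lactate exporter Slc16a3 (MCT4) had 51.9, 21, 36.5 and 29.2 CPM in LPS+TSLP replicates 1 to 4, 62.5, 36.7 and 67.8 CPM in LPS replicates 1 to 3 and 23, 34.3 and 37.9 CPM in Vehicle replicates 1 to 3. The groups overlapped, and its log2 fold change in LPS against Vehicle was 0.81 (SE 0.34, adjusted p = 0.101). Slc16a1 (MCT1), which carries lactate in both directions, averaged 52.1 ± 21.2 CPM in LPS+TSLP, 90.5 ± 22.3 CPM in LPS and 65.7 ± 31.5 CPM in Vehicle, and its log2 fold change in LPS against Vehicle was 0.46 (SE 0.396) as tested and −0.09 with the GC trend removed.

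The PDKs hold pyruvate dehydrogenase inactive, and Pdk2 (ENSMUSG00000038967, GRCm38 chromosome 11, 95026258 to 95041354, minus strand) gave the smallest adjusted p of the 36 genes in LPS against Vehicle. Pdk2 had 28.4, 32.9, 33.1 and 29.8 CPM in LPS+TSLP replicates 1 to 4, 13.5, 17.5 and 13.3 CPM in LPS replicates 1 to 3 and 57.2, 52.7 and 28.7 CPM in Vehicle replicates 1 to 3. All LPS libraries lay below all others, the LPS+TSLP libraries were tightly grouped, and Vehicle replicate 3 fell inside their range. The log2 fold change in LPS against Vehicle was −1.64 (SE 0.254, adjusted p = 0.00295), and Pdk2 was called at the same threshold in each of the 19 other settings run at it, from −1.89 to −1.39. None of its 50-base stretches occurs in another annotated gene. Fibroblast markers (8 genes) summed to 2140 to 3966 CPM in LPS+TSLP, 1377 to 2647 CPM in LPS and 4409, 4419 and 6282 CPM in Vehicle replicates 1 to 3. Of the 8 markers 5 fell in LPS against Vehicle, where 24.9% of all tested genes were called. Of 10 endothelial markers 4 fell and 1 rose, of 5 smooth muscle markers 1 fell, and both tested adipocyte markers fell. The part of any of these lists in the result was not tested.

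Pdk4, the starvation-induced kinase, ran the other way without passing. It had 15.5, 13.5, 17.9 and 24.8 CPM in LPS+TSLP replicates 1 to 4, 23.7, 18.9 and 27.8 CPM in LPS replicates 1 to 3 and 6.18, 13.6 and 18.8 CPM in Vehicle replicates 1 to 3. Its log2 fold change in LPS against Vehicle was 0.87 (SE 0.367, adjusted p = 0.103). The LPS libraries lay above the Vehicle libraries by a narrow margin between LPS replicate 2 and Vehicle replicate 3. Pdk1 lay lower in all LPS than in all Vehicle libraries (log2 −0.58, SE 0.227, adjusted p = 0.0835), and Pdk3 gave −0.15 (SE 0.31). Per kilobase, Pdk2 made up 38.7% ± 8.56 of the 4 kinases in LPS+TSLP, 20.9% ± 5.18 in LPS and 43.2% ± 9.52 in Vehicle, and Pdk4 made up 14.1% ± 3 in LPS+TSLP, 21% ± 2.22 in LPS and 8.35% ± 5.09 in Vehicle. In both shares the LPS libraries did not overlap either other group. The subunits of the enzyme they act on, Pdha1 and Pdhb, did not pass (log2 −0.42, SE 0.242, and 0.14, SE 0.201). Exons of Map3k15 on the opposite strand cover 16.1% of Pdha1, and without a stated strand setting their reads cannot be told apart. Of the 50-base stretches of the principal Pdhb transcript, 30.3% also occur in other genes, which makes its level uncertain.

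**Figure D3:**
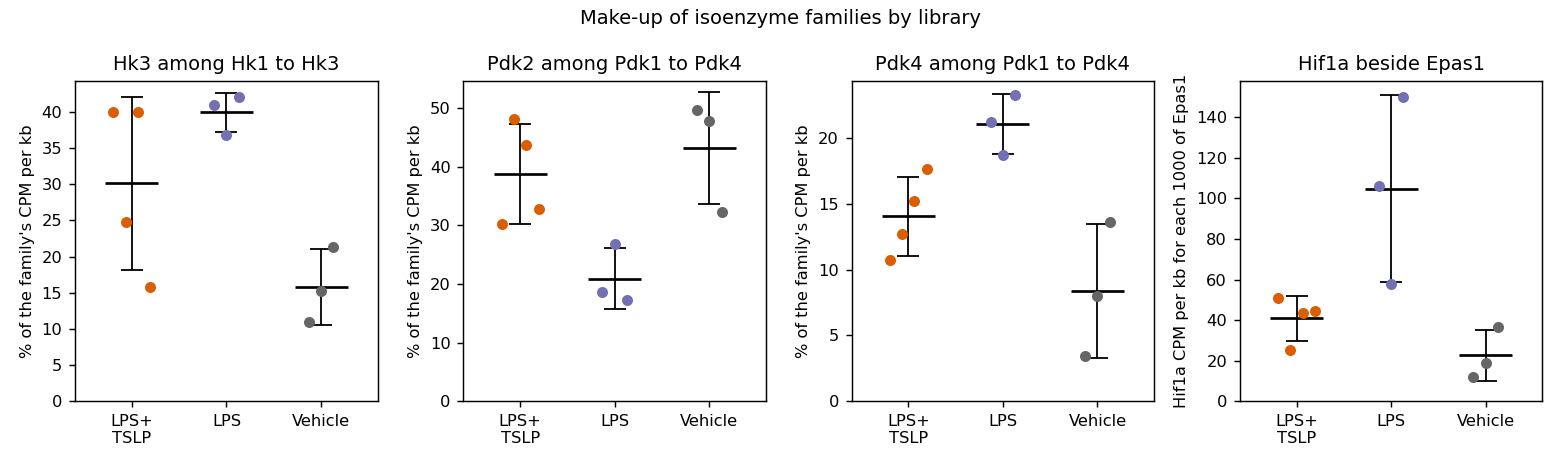
Points are libraries, thick lines means and bars SD, with LPS+TSLP left of LPS and LPS left of Vehicle: the share of the family's CPM per kilobase taken by Hk3, Pdk2 and Pdk4, and the Hif1a CPM per kilobase for each 1000 of Epas1. The LPS libraries stand apart from the Vehicle libraries in all 4 panels, at 17.2% to 26.9% for Pdk2 against 32.3% to 49.6%.

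Hif1a and Epas1 encode the oxygen-regulated subunits HIF-1alpha and HIF-2alpha, whose activity is set mainly at the protein level. The printed Hif1a promoter held 3 matches of ACGTG, counting both strands of the palindrome CACGTG. Hif1a (ENSMUSG00000021109, GRCm38 chromosome 12, 73901375 to 73947530, plus strand) had 131, 69.3, 102 and 166 CPM in LPS+TSLP replicates 1 to 4, 201, 128 and 339 CPM in LPS replicates 1 to 3 and 44, 73.6 and 120 CPM in Vehicle replicates 1 to 3. LPS lay above Vehicle in all libraries, by 128 against 120 CPM at the closest, and LPS+TSLP overlapped both. Hif1a rose in LPS against Vehicle by 1.49 on the log2 scale (SE 0.443, adjusted p = 0.0318). With the GC trend removed the value was 0.51 and the call was lost (adjusted p = 0.391), and Hif1a has the lowest GC content of the 36 genes (41%). It was also lost without Vehicle replicate 1 (1.21, adjusted p = 0.115), Vehicle replicate 2 (adjusted p = 0.0998), LPS replicate 1 (adjusted p = 0.0632) or LPS replicate 3 (1.09, adjusted p = 0.0926), and with LPS+TSLP replicate 1 and LPS replicate 1 both left out (adjusted p = 0.0562).

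Epas1 (ENSMUSG00000024140, GRCm38 chromosome 17, 86753700 to 86833410, plus strand) had the highest CPM per kilobase of the 36 genes in LPS+TSLP (603 ± 128) and Vehicle (755 ± 62.7) and stood below Aldoa in LPS (449 ± 39.9 against 526 ± 120). It had 2988, 3230, 2747 and 4347 CPM in LPS+TSLP replicates 1 to 4, 2228, 2568 and 2641 CPM in LPS replicates 1 to 3 and 4201, 4493 and 3804 CPM in Vehicle replicates 1 to 3. The 3 LPS libraries were the lowest of all 10. Epas1 fell in LPS against Vehicle by 0.75 on the log2 scale (SE 0.247, adjusted p = 0.0463), a call that held in 2 of the 10 fits that left out 1 library (adjusted p from 0.028 to 0.14) and was lost with the GC trend removed (−0.54, adjusted p = 0.146) or with LPS+TSLP replicate 1 and LPS replicate 1 both left out (−0.66, adjusted p = 0.0804). Endothelial markers (10 genes) summed to 3070 to 6304 CPM in LPS+TSLP, 4786 to 5122 CPM in LPS and 5361 to 7249 CPM in Vehicle. In LPS against Vehicle 4 of them (Kdr, Vwf, Tek and Cdh5) fell while Calcrl rose, where 24.9% of all tested genes were called. Their part in the result was not tested. For each 1000 CPM per kilobase of Epas1 Hif1a had 51, 25.1, 43.4 and 44.5 CPM per kilobase in the LPS+TSLP libraries, 106, 58 and 150 in the LPS libraries and 12.2, 19.1 and 36.7 in the Vehicle libraries, so that the LPS libraries exceeded all others. Egln3, a prolyl hydroxylase that marks HIF proteins for breakdown, had 2.29 to 8.74 CPM over all libraries and gave −0.35 (SE 0.436).

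**Figure D4:**
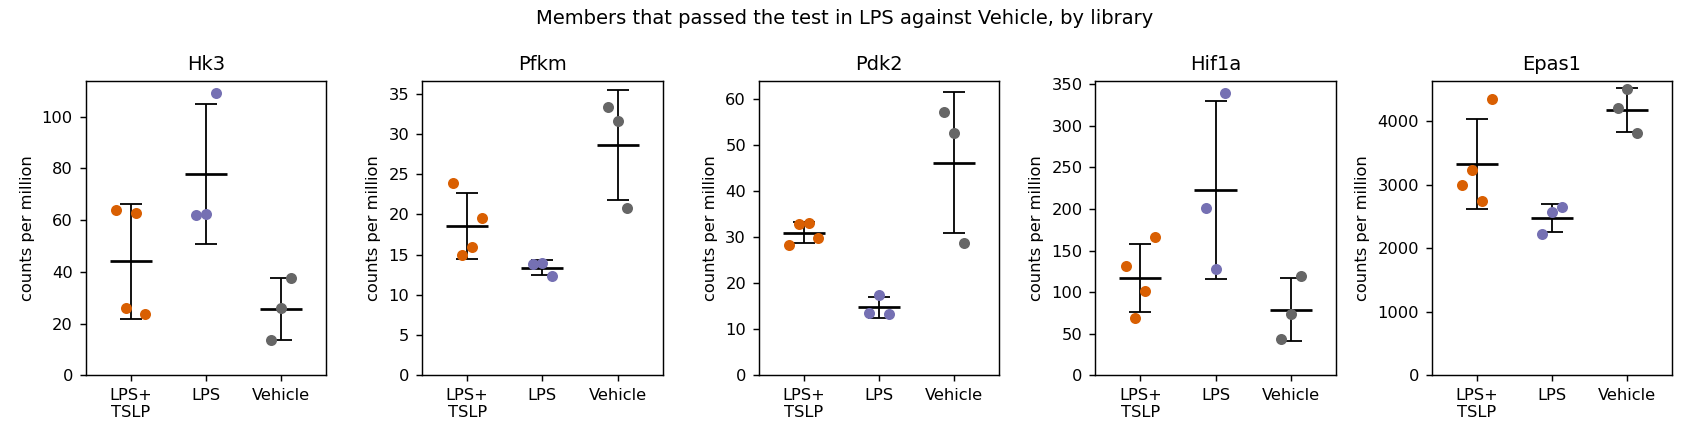
CPM by library (points) with the mean (thick line) and SD (bars) for the 5 genes that passed in LPS against Vehicle; LPS+TSLP stands left of LPS and LPS left of Vehicle, and each axis starts at 0. Pdk2 in LPS+TSLP (28.4 to 33.1 CPM) stands above LPS (13.3 to 17.5 CPM) with no overlap, whereas Hif1a in LPS+TSLP (69.3 to 166 CPM) overlaps both other groups.

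**Figure D5:**
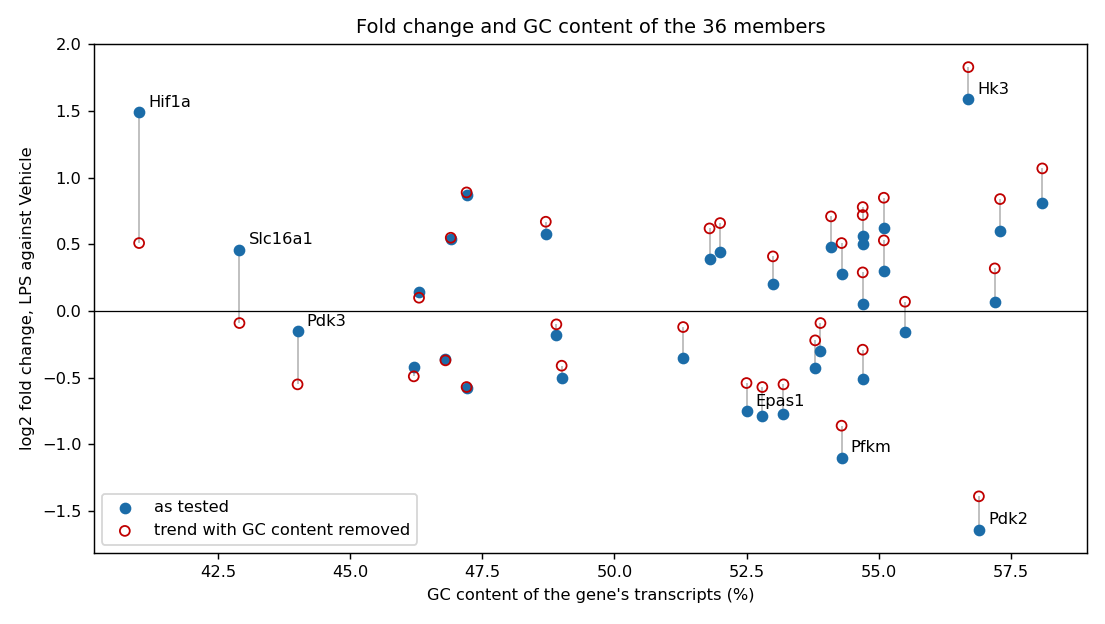
The horizontal axis gives the GC content of each gene's transcripts in percent and the vertical axis its log2 fold change in LPS against Vehicle, as tested (filled) and with each library's trend with GC content removed (open), joined by a line for each of the 36 genes. Hif1a, at 41%, is at 1.49 as tested and at 0.51 with the trend removed, while Hk3, at 56.7%, is at 1.59 and 1.83.

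LPS+TSLP against LPS asked whether TSLP given before LPS changed the response. None of the 36 genes passed with edgeR, and 0% of all tested genes did. The LPS libraries enter both this comparison and LPS against Vehicle, so a chance deviation in them moves the values of the pair in opposite directions. At an unadjusted p under 0.05 there were 6 genes: Slc2a1, Hk2, Pfkfb3, Pkm, Pdk2 and Hif1a, against 8.1% of all tested genes. In 7 genes (19.4%) the groups did not overlap, against 7.42% of all tested genes; Pfkm, Pdk2 and Epas1 were higher and Slc2a1, Hk2, Pfkfb3 and Pkm lower in LPS+TSLP. Limma-voom called none of the 36, and DESeq2's Wald test called Pdk2 alone, where it called 0.211% of all genes it tested.

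Pdk2 averaged 31.1 ± 2.33 CPM in LPS+TSLP and 14.8 ± 2.36 CPM in LPS, a difference of 1.07 on the log2 scale (SE 0.239) with an adjusted p of 0.589 in edgeR and 0.0259 in DESeq2, higher in 4 of 4 LPS+TSLP libraries. Over all settings other than DESeq2 the adjusted p ran from 0.345 with the replicate number as a block to 0.903 without LPS replicate 1. The log2 fold change was −0.67 for Pfkfb3 (SE 0.259), −0.5 for Pkm (SE 0.205), −0.5 for Slc2a1 (SE 0.216), −0.54 for Hk2 (SE 0.245) and −0.93 for Hif1a (SE 0.403), with adjusted p from 0.589 to 0.615. Of the 36 values 10 were above 0 and 26 below, with a median of −0.14, against 0.02 over all tested genes. The median was −0.25 without LPS+TSLP replicate 1, −0.24 without LPS replicate 2, −0.09 without LPS+TSLP replicate 2 and −0.28 with LPS+TSLP replicate 1 and LPS replicate 1 both left out. The 11 enzymes of middle and lower glycolysis had 1 value above 0 (Eno3, 0.11) and 10 below, while 52.2% of all tested genes lay above 0. Among the 10, Pgam1 (−0.02), Aldoc (−0.03) and Gpi1 (−0.07) were close to 0. Each of these reached a value above 0 in a fit that left out 1 library. The monocarboxylate transporters Slc16a1 and Slc16a3 had −0.8 (SE 0.368) and −0.68 (SE 0.314), and their libraries overlapped between the groups. Summed neutrophil markers, at 584 to 1226 CPM in LPS+TSLP and 1683 to 2501 CPM in LPS, lay lower in all LPS+TSLP libraries. Of the 13 markers 3 had a log2 fold change above 0 and 10 below, and 0 passed. Their part in these values was not tested.

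LPS+TSLP against Vehicle set the pretreated lungs against those given Vehicle, and it shares libraries with both other comparisons. None of the 36 genes passed with edgeR, while 14.2% of all tested genes did. At an unadjusted p under 0.05 there were 5 genes (Slc2a3, Pfkm, Pdk2, Pdk1 and Aldoc), against 33% of all tested genes, and in 4 genes (11.1%) the groups did not overlap, against 31.7%. Gpi1 and Aldoa were higher and Slc2a3 and Aldoc lower in all LPS+TSLP libraries. DESeq2's Wald test called Aldoc (−0.79, adjusted p = 0.0309) and Slc2a3 (−0.54, adjusted p = 0.0333), where it called 22.9% of all genes it tested, and limma-voom called none. In LPS against Vehicle DESeq2 called 8 of the 36, against 32.2% of all genes it tested. Pdk2 gave −0.57 (SE 0.229, adjusted p = 0.111), Pfkm −0.63 (SE 0.225, adjusted p = 0.082), Hk3 0.78 (SE 0.439, adjusted p = 0.239), Hif1a 0.56 (SE 0.411, adjusted p = 0.366) and Epas1 −0.32 (SE 0.228, adjusted p = 0.349). With the GC trend removed the Hif1a value turned to −0.28 (adjusted p = 0.655).

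Neighbouring pathways were read from lists of other genes, and the counts that follow are for LPS against Vehicle, beside the 24.9% of all genes called. Of 14 glycogen genes 4 fell and none rose: the muscle and brain glycogen phosphorylases Pygm (log2 −1.55, SE 0.308, adjusted p = 0.00703) and Pygb (−1.35, SE 0.356), the lysosomal glucosidase Gaa (−0.87) and the glycogen synthase Gys1 (−0.8). Of 16 regulators of glycolysis 6 fell and none rose, among them the fatty acid receptor Ppara (−2.32, SE 0.532, adjusted p = 0.0118), Foxo1 (−1.14), the kinase Mtor (−1.02) and its partner Rptor (−0.87). With the GC trend removed 4 of these missed the threshold, with Gaa at −0.57 (adjusted p = 0.0725), Gys1 at −0.56 (adjusted p = 0.148), Mtor at −0.81 (adjusted p = 0.0543) and Rptor at −0.64 (adjusted p = 0.0501).

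Around pyruvate, 2 of 9 genes of its entry into mitochondria rose and 1 fell. The shared dehydrogenase subunit Dld rose by 1.19 (SE 0.235, adjusted p = 0.00695) and the mitochondrial pyruvate carrier Mpc2 by 0.78 (SE 0.228), while pyruvate carboxylase, Pcx, fell by 1.06 on the log2 scale (SE 0.313). All 3 calls were lost with the GC trend removed, with −0.02 for Dld, 0.46 for Mpc2 and −0.81 for Pcx. Of 22 genes of the tricarboxylic acid cycle and itaconate 1 rose and 2 fell: the itaconate synthase Acod1 of activated macrophages by 3.86 (SE 1.01, adjusted p = 0.0192), and Ogdh (−0.85, SE 0.199) and Acly (−1.3, SE 0.338), the oxoglutarate dehydrogenase and the citrate lyase, and these calls held with the trend removed. Of 9 pentose phosphate genes Rpe, the ribulose phosphate epimerase, rose (1.82, SE 0.279, adjusted p = 0.00284, and 1.01 with the trend removed) and Shpk, sedoheptulokinase, fell (−0.96, adjusted p = 0.0314, and 0.0746 with it removed).

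Of 10 further oxygen-sensing genes 3 rose, including the ubiquitin ligase partners of VHL, Eloc (1.38, SE 0.236) and Cul2 (0.93, SE 0.216), and 2 fell, the hydroxylases Hif1an (−0.85, SE 0.194) and Egln1 (−0.64, SE 0.178). Only Hif1an of these 4 kept its call with the GC trend removed (−0.62, adjusted p = 0.0353), with Eloc at 0.42 and Cul2 at 0.03. Of 19 other tested targets of hypoxia-inducible factors 3 rose and 1 fell, with the mitochondrial protein Higd1a (1.01, SE 0.318, adjusted p = 0.0402) among those that rose and the Myc antagonist Mxi1 (−0.71, SE 0.198) the one that fell. With the GC trend removed Higd1a was at 1.03 (adjusted p = 0.0545) and Mxi1 at −0.54 (adjusted p = 0.0816). Of 21 other tested isoenzymes and sugar transporters 2 fell, Bpgm (−0.74, SE 0.238) of red blood cells and the insulin-responsive transporter Slc2a4 of fat and muscle (−1.79, SE 0.593). Both calls were lost with the GC trend removed (Bpgm −0.63, adjusted p = 0.0906, and Slc2a4 −1.54, adjusted p = 0.0782), and each held in 9 of the 19 settings run at the same threshold. Adipocyte markers (5 genes) summed to 2.94 to 4.83 CPM in LPS+TSLP, 2.65 to 4.51 CPM in LPS and 10.3 to 38.1 CPM in Vehicle, and both tested ones fell in LPS against Vehicle; their part in the result was not tested. None of 9 tested genes of gluconeogenesis and glycolytic brakes passed. In LPS+TSLP against LPS none of the genes of these lists passed with edgeR.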

How the data were processed

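Total RNA of whole lung was extracted with Trizol and sequenced from Illumina libraries, per the labels' protocols. The deposited values are raw counts of reads per gene on GRCm38 (mm10). For these the authors used HTSeq 0.6.0 after HISAT2 and CASAVA, per the submitters' processing notes. Annotation release and strand setting are not given in the sources used here. Libraries were grouped by the treatment in the labels.

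Counts were filtered with filterByExpr (17139 of 54532 genes kept), scaled by TMM and tested by robust quasi-likelihood in edgeR 4.0.16 (R 4.3.3), all 10 libraries in 1 fit of 3 groups with 7 residual degrees of freedom. P-values are two-sided and Benjamini-Hochberg adjusted over all genes tested, with a threshold of 0.05. CPM use TMM-scaled library sizes, and levels of different genes are compared per kilobase of principal transcript. Positions, GC content and shared 50-base stretches come from GENCODE transcripts and promoters from RefSeq (GRCm38.p6). The tests were run on simulated data first. Those data held no trend with GC content, so that run does not bear on how the calls depend on it. No pair of libraries within a group was a duplicate by a chi-square comparison. Libraries with equal replicate numbers had correlations of −0.34 to 0.4 after group means were removed, which was too weak to treat them as pairs.

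Alternatives were DESeq2 1.42.0 size factors and Wald test, limma 3.58.1 (voom), no filter, only the groups compared, a replicate block, removal of the GC trend (loess, span 0.3), removal of mitochondrially encoded genes, leaving out libraries and a threshold of 0.01. All genes called among the 36 are named, and up to 4 called genes from each neighbouring list by smallest adjusted p, except a gene not reported here. The genes and lists were chosen with earlier results of these data known. Counting intervals were not used, as each result compares replicates.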

Additional observations from a re-analysis of the deposited data

Results flagged for a closer look

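Within the 4 LPS+TSLP libraries, 3 of the 36 genes had 1 library far from the rest, by the ratio of its gap to the nearest other library over the whole range (above the 95% critical value of Dixon). Chance flags about 1 in 20 such groups, and 36 were examined. Slc2a1 was at 43.9 CPM in LPS+TSLP replicate 2, where the others had 53.3 to 54.6 CPM (ratio 0.887). Pdha1 was at 103 CPM in replicate 4, where the others had 65.4 to 68.4 CPM (ratio 0.92). Pdhb was at 86.9 CPM in replicate 1, the library with 13.1% mitochondrially encoded counts, where the others had 61.2 to 65.5 CPM (ratio 0.832).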

How the results depend on the processing

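In LPS against Vehicle the 5 calls among the 36 genes became 2 with no filter on low counts, 8 with DESeq2's Wald test, 1 at an adjusted p under 0.01, and 1 to 8 when each library was left out in turn (1 without Vehicle replicate 1 or 2, 2 without LPS replicate 1, 3 without LPS replicate 3, 8 without LPS+TSLP replicate 1, which added Aldoc, Pkm and Slc16a3). In LPS+TSLP against LPS the 0 calls became 1 with DESeq2 and were 0 to 0 over the libraries left out. In LPS+TSLP against Vehicle the 0 calls became 2 with DESeq2, 3 with LPS+TSLP replicate 1 and LPS replicate 1 both left out, and 0 to 2 over the libraries left out (1 without LPS replicate 1, 2 without LPS+TSLP replicate 1 or Vehicle replicate 3). With the replicate number as a block, which does not pair the samples by the labels, there were 6 (with Ldhb), 0 and 0 calls in the 3 comparisons, and not every pair of equal numbers correlated positively. Removal of the GC trend gave 6 calls in LPS against Vehicle and turned Dld to −0.02 in LPS against Vehicle and −0.24 in LPS+TSLP against Vehicle; the cause was not tested. In LPS against Vehicle none of the 5 called genes changed sign in the 20 settings, while in LPS+TSLP against Vehicle Hif1a turned to −0.28 with the GC trend removed. Of the 36 genes 7, 14 and 14 changed sign in some setting in the 3 comparisons. Gapdh, Eno1 and Pgk1 share most of the principal transcript with other genes, and the effect on their counts was not tested; Aldoc, Eno2, Egln3, Pfkfb1 and Gapdh rest on few reads.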
